A study of Homo sapiens with 8 samples.

Results

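A set of 9 genes that start, read out or restrain bone morphogenetic protein (BMP) signalling was followed in human chordoma cells. These were the ligand genes BMP2 and BMP4, the decoy receptor gene BAMBI, the inhibitory SMAD genes SMAD6 and SMAD7, and the target genes ID1, ID2, ID3 and ID4. They were taken by name, as the probe sets whose only gene symbol in the array's annotation is a listed member, and 9 of the 22395 genes named this way are members, each read by 1 probe set. On all 8 arrays each of the 9 exceeded 2.57, which is the median over every deposited value, so the filter on low values removed none of them. The study measured RNA on whole-transcript arrays from MUG-Chor1 and U-CH1, 2 established cell lines grown from chordoma, a bone tumour that resembles the embryonic notochord. The groups were MUG-Chor1 given 10 ng/mL recombinant human TNF-α, an inflammatory cytokine, in 3 additions a week for 1 week (1 array), untreated MUG-Chor1 (3 arrays), U-CH1 given the same TNF-α treatment (1 array) and untreated U-CH1 (3 arrays). All cells grew as monolayers on gelatin in medium with serum, which itself can carry BMP activity.

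BMP ligands bind paired serine/threonine kinase receptors that phosphorylate SMAD1, SMAD5 and SMAD9, which enter the nucleus with SMAD4 and switch on target genes, the ID genes first among them. ID proteins have a helix-loop-helix but no DNA-binding region, and they pair with basic helix-loop-helix (bHLH) factors and keep them off DNA. SMAD6, SMAD7 and BAMBI are themselves induced by BMP or TGF-β and damp the signal at the receptor, so they are read both as targets and as brakes. BMP signals are known for their part in notochord and cartilage development.

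Values are log2 probe-set levels, and a difference is TNF minus untreated, or MUG-Chor1 minus U-CH1. Differences carry the SE and the adjusted p of a limma fit over 16986 genes, two-sided, and a gene is called at an adjusted p under 0.05. The arrays had medians of 2.52 to 2.63, and controls of 1 line correlated at 0.959 to 0.981 over the genes tested. All 7 chordoma markers in a list that held TBXT (brachyury), KRT8, KRT18, KRT19, CD24, SOX9 and ACAN lay above the median on all 8 arrays. Of 7 leukocyte markers 4 exceeded it on at least 1 array, CD68 and CSF1R on all 8, while PTPRC, CD3E and MS4A1 lay below it throughout. Of 6 named endothelial markers 4 exceeded it on at least 1 array, KDR on all 8 (4.20 to 7.52), while TIE1 and EMCN lay below it throughout. MUG-Chor1 control 3 was above both other MUG-Chor1 controls for 7 of the 9 members, against 38.4% of all genes tested. It exceeded their mean by 1.34 for BAMBI, 1.01 for ID1 and 0.93 for SMAD7 (log2), against a median size of 0.25 over all genes. U-CH1 control 3 was above both other U-CH1 controls for 6 members and below both for 3, against 39.4% and 28.3% of all genes. It exceeded their mean by 0.96 for ID1 and 0.85 for ID4. For U-CH1 control 2 the same differences were -1.05 for ID1 and -1.16 for ID4. The labels do not say whether the controls of a line were separate cultures, and the p-values then reflect array-to-array spread that may be technical. Each line's TNF group is 1 array whose spread is borrowed from the controls, and so few arrays limit the precision. Fewer cells that express a gene and less RNA per cell cannot be told apart here.

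The 250 bases before the annotated start are shown for BAMBI and ID4, the members with the widest spans over the arrays, and for ID1, the classic BMP target. The sequences are RefSeq's (GRCh38.p14, plus strand, 5′ to 3′), at chr10:28677271-28677520 for BAMBI, chr6:19837120-19837369 for ID4 and chr20:31605039-31605288 for ID1. Capitals mark GGCGCC, a sequence that BMP SMADs are known to bind, and CAGAC or its reverse complement, which contains the core that SMAD4 is known to bind.
BAMBI: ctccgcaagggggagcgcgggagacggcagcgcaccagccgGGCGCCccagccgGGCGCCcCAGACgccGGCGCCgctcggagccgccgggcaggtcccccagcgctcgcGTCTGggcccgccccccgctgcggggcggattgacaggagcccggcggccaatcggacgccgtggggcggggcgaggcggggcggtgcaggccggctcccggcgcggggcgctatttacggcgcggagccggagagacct
ID4: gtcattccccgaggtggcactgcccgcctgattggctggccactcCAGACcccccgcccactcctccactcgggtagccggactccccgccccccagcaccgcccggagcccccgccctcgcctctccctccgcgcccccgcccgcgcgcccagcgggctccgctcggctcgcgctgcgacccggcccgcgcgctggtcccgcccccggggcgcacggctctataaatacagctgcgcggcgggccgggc
ID1: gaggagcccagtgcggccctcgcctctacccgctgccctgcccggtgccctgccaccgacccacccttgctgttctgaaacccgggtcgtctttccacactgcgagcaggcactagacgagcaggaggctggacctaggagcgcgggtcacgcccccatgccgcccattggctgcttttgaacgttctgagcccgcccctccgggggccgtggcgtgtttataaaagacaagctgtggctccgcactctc
The BAMBI stretch held GGCGCC at 3 places, starting 209, 196 and 181 bases before the start, and CAGAC at 2, starting 189 and 140 bases before it, with no overlap between them. The ID4 stretch held 1 CAGAC, and the ID1 stretch held neither. Of 35116 stretches of the same length before annotated starts, 16.4% held GGCGCC, 0.527% held it at 3 or more places and 38.0% held CAGAC, on either strand. The table holds 12 such stretches for 8 of the members, BMP2 not among them. GGCGCC stood in 2 of the 12 and CAGAC in 7, and the NF-kB consensus stood in 1, that of ID2, against 9.96% of all stretches. The BAMBI stretch was 81.2% G and C, ID4 78.8% and ID1 66.0%. These matches are letters only, and a stretch without a match shows nothing about the factor.

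Which members answered TNF was asked first in MUG-Chor1. BAMBI, which encodes a transmembrane pseudoreceptor without a kinase domain that blocks BMP and TGF-β receptor complexes, rose 6.65-fold. The other 8 members did not pass. ID1, ID2 and ID4 read lower on the TNF array than on every control, while the ligand gene BMP2 read higher. In all, 1 of 9 members was called higher and 0 lower, against 1.47% and 1.41% of all genes tested. At an unadjusted p under 0.05 the members numbered 1 higher and 3 lower, beside 2144 of 16986 genes in both directions together.

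**Figure D1:**
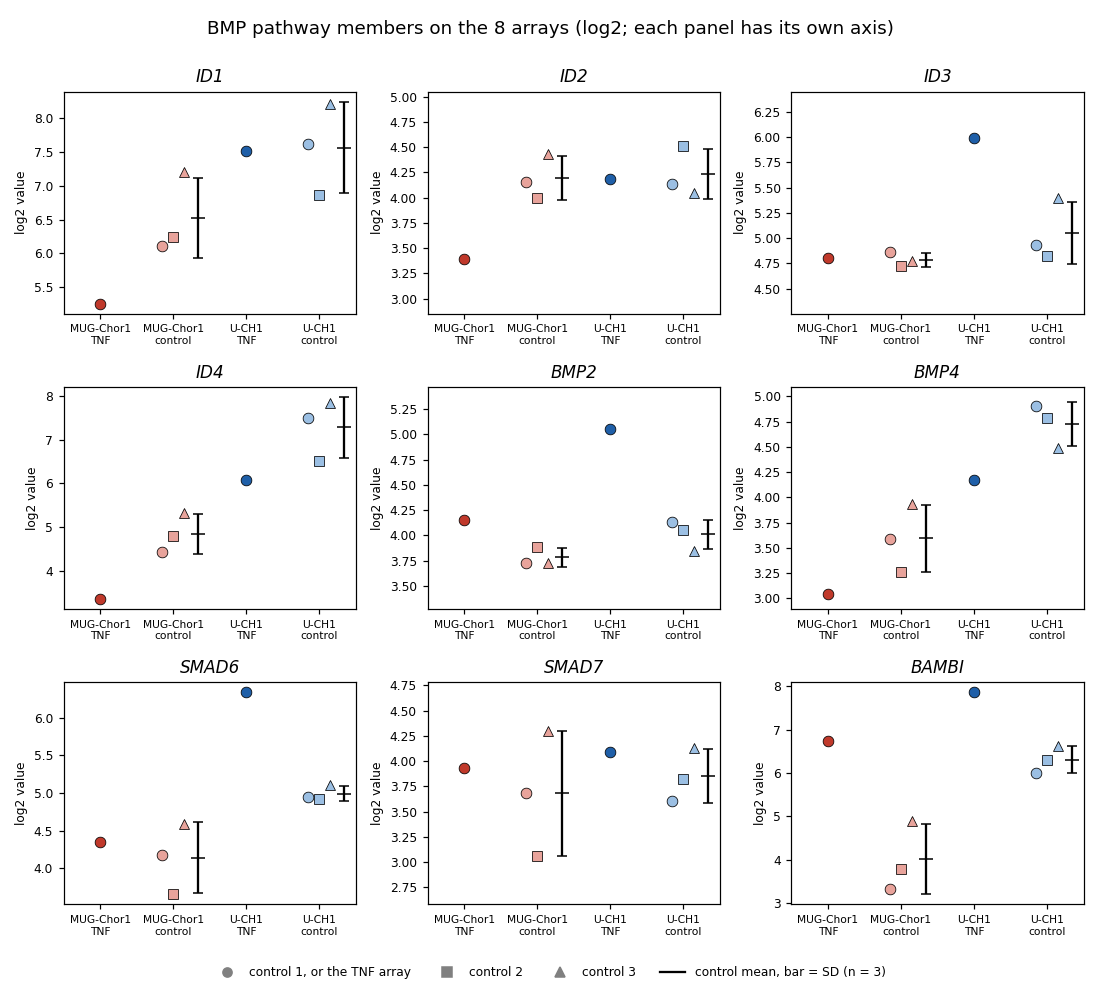
Level of each member (log2, own axis per panel) on the 8 arrays, by group, with control mean and SD (n = 3). BAMBI on the MUG-Chor1 TNF array (6.74) stands above all MUG-Chor1 controls (3.33 to 4.90), and ID4 is lower in both lines' TNF arrays than in their own controls.

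BAMBI read 6.74 on the MUG-Chor1 TNF array, against 3.33, 3.79 and 4.90 on the MUG-Chor1 controls. The TNF array lay above each control, although the controls themselves spread widely with MUG-Chor1 control 3 the highest. The difference was 2.73 ± 0.50 (SE; adjusted p = 0.0150), which ranked 44th among all rises in that line. It was 3.18 without MUG-Chor1 control 3 and 2.39 to 3.18 when any 1 control was left out, with the call kept each time (adjusted p up to 0.0353). Fitted on the 4 MUG-Chor1 arrays alone, the same difference had an adjusted p of 0.0764 and was not called. Other markers moved with it on that array. Of 6 tested fibroblast markers 4 rose (DCN, LUM, FAP and DPP4), while THY1 (-0.81) and PDGFRB (-0.56) were lower without a call. The list mean was 5.82 on the TNF array, against 3.78 to 4.46 on the MUG-Chor1 controls. DCN rose from control levels below the median of all values (1.46 to 1.58) to 3.11 on the TNF array. FAP exceeded the filter only on that array (5.71, against 1.63 to 2.29 on the MUG-Chor1 controls). DPP4 lost its call with quantile normalization (adjusted p = 0.0523), on the MUG-Chor1 arrays alone (0.105) and without any 1 U-CH1 control or MUG-Chor1 control 1 (up to 0.0644), and DCN without U-CH1 control 1 or MUG-Chor1 control 1 or 2 (up to 0.105). Of 7 chordoma markers 5 fell, with a list mean of 5.71 on the TNF array against 7.90 to 8.17 on the controls, and TBXT fell by 1.92 (adjusted p = 0.00541). Of 4 tested endothelial markers KDR fell, by 2.37 (adjusted p = 0.0121). The leukocyte list had a mean of 3.13 on the TNF array against 2.95 to 3.00 on the controls, with no marker called. The part of this wider change in the BAMBI result was not tested.

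ID1, ID2 and ID4 read lower with TNF in MUG-Chor1, without a call. ID1 read 5.26 on the TNF array, against 6.11, 6.25 and 7.20 on the controls (difference -1.26 ± 0.51, SE; adjusted p = 0.323). ID4, the member of the family linked to neural and bone cell differentiation, read 3.35 with TNF, against 4.42, 4.79 and 5.32 (difference -1.50 ± 0.49, SE; adjusted p = 0.179). ID2 read 3.39 with TNF, against 4.00, 4.15 and 4.43 (difference -0.80 ± 0.30, SE; adjusted p = 0.258). In all these genes the TNF array was below the lowest control. ID3 differed from them, at 4.80 with TNF against 4.72, 4.77 and 4.86, well inside the controls (difference 0.02, with a 95% interval of -0.63 to 0.67).

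The ligands and inhibitory SMADs of MUG-Chor1 were not called. BMP2 read 4.15 with TNF, against 3.73, 3.73 and 3.89 (difference 0.36 ± 0.26, SE; adjusted p = 0.676). BMP4 read 3.04 with TNF, against 3.26, 3.59 and 3.93 (difference -0.56 ± 0.32, SE; adjusted p = 0.559). The ligand genes thus lay outside their controls on opposite sides. SMAD6, which preferentially blocks BMP receptors, read 4.35 with TNF, against 3.65, 4.17 and 4.59 (difference 0.21, interval -0.55 to 0.98). SMAD7, which blocks both BMP and TGF-β receptors, read 3.93 with TNF, against 3.06, 3.68 and 4.30 (difference 0.25, interval -0.68 to 1.18). Both lay inside the control range. Counting by range, the TNF array was above all 3 controls for 2 members (BMP2 and BAMBI) and below them for 4 (ID1, ID2, ID4 and BMP4), against 35.3% and 23.9% of all genes tested. The median difference of the members was 0.02, beside 0.06 over all genes.

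In U-CH1 no member passed, and the largest differences were mostly positive. BAMBI, SMAD6, BMP2 and ID3 read above every U-CH1 control with TNF, and ID4 and BMP4 below. In limma 0 of 9 members were called in either direction, against 0.913% of genes called higher and 0.359% called lower. At an unadjusted p under 0.05, 4 members were higher and 1 lower, beside 1832 of 16986 genes in both directions together. By range, 4 members were above all controls and 2 below them, against 30.8% and 23.4% of all genes. The median difference was 0.23, beside 0.04 over all genes. The chordoma list had a mean of 7.61 on the U-CH1 TNF array, against 7.94 to 8.39 on the U-CH1 controls. For the leukocyte list it was 3.33, against 2.94 to 3.02, while the fibroblast and endothelial means lay inside the controls. No marker was called in U-CH1.

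BAMBI read 7.86 on the U-CH1 TNF array, against 6.0, 6.29 and 6.62 on the U-CH1 controls (difference 1.56 ± 0.50, SE; adjusted p = 0.230). SMAD6 read 6.34 with TNF, against 4.92, 4.95 and 5.11 (difference 1.34 ± 0.35, SE; adjusted p = 0.112). Both receptor-level brakes thus lay above every U-CH1 control. Their calls hung on an array of the other line, since the spread is shared: without MUG-Chor1 control 3 both passed, with the same differences and adjusted p of 0.0364 for BAMBI and 0.0453 for SMAD6. SMAD7 read 4.09 with TNF, against 3.60, 3.82 and 4.13, inside the controls (difference 0.23, interval -0.70 to 1.16).

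BMP2, a ligand that drives bone and cartilage formation, read 5.05 with TNF, against 3.85, 4.05 and 4.13 (difference 1.04 ± 0.26, SE; adjusted p = 0.103). BMP4 read 4.17 with TNF, against 4.49, 4.79 and 4.91 (difference -0.56 ± 0.32, SE; adjusted p = 0.607). Here too the ligand genes stood on opposite sides of their controls. ID3 read 5.99 with TNF, against 4.82, 4.93 and 5.40 (difference 0.94 ± 0.29, SE; adjusted p = 0.210). ID4 read 6.08 with TNF, against 6.51, 7.49 and 7.85 (difference -1.20 ± 0.49, SE; adjusted p = 0.383). ID3 and ID4, both read as BMP targets, therefore lay on opposite sides of the U-CH1 controls. ID1 read 7.51 with TNF, against 6.86, 7.62 and 8.21 (difference -0.05, interval -1.19 to 1.09). ID2 read 4.18 with TNF, against 4.05, 4.14 and 4.51 (difference -0.05, interval -0.71 to 0.60). For ID1 and ID2 the U-CH1 TNF array was inside the control range, and the ID1 interval is wide.

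**Figure D2:**
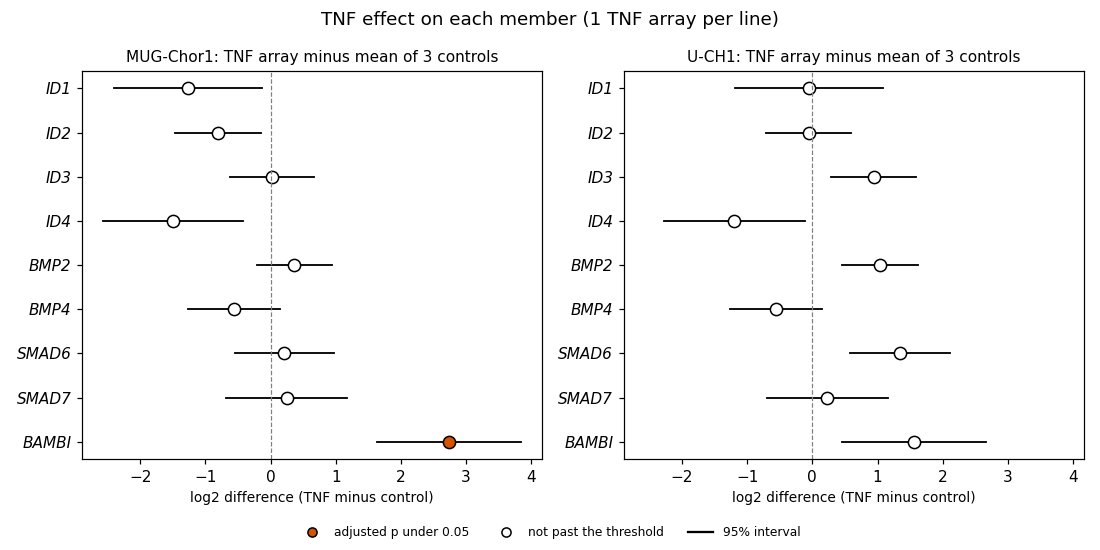
Difference between the TNF array and the 3 controls (log2) for each member in MUG-Chor1 (left) and U-CH1 (right), with 95% intervals from limma. BAMBI in MUG-Chor1 (2.73, interval 1.63 to 3.84) is the filled point, and ID4 lies below 0 in both lines (-1.50 and -1.20).

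Across both lines together, in a model with line and TNF as terms, BAMBI was the member that passed, with a difference of 2.15 ± 0.39 (SE; adjusted p = 0.0186), or 4.43-fold. That is 1 of 9 members higher and 0 lower, against 1.55% and 0.930% of all genes tested. Without the MUG-Chor1 TNF array, which leaves the U-CH1 contrast, the BAMBI difference was 1.56 and its call ended (adjusted p = 0.227). ID4 came next in size at -1.35 ± 0.34 (SE; adjusted p = 0.0636). It passed when U-CH1 control 2, the lowest U-CH1 control at 6.51, was left out (-1.54; adjusted p = 0.0244). BMP2 stood at 0.70 ± 0.20 (SE; adjusted p = 0.106), SMAD6 at 0.78 (adjusted p = 0.221) and BMP4 at -0.56 (adjusted p = 0.239). The remaining members were ID1 at -0.66, ID2 at -0.43, ID3 at 0.48 and SMAD7 at 0.24, with adjusted p of 0.384 to 0.757. The median over the 9 members was 0.24, beside 0.05 over all genes. Among the cell type markers, TBXT, KRT19 and ACAN were called lower across both lines, and DPP4, CD68 and ITGAM higher. Each of these marker calls ended without the MUG-Chor1 TNF array. CD68 and ITGAM lost theirs without the U-CH1 TNF array too, at differences of 1.00 and 0.67. The calls of TBXT, ACAN, DPP4, CD68 and ITGAM also ended without some single control (adjusted p up to 0.0974). The part of such marker changes in the member results was not tested.

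Whether the lines differed in their answer was tested as the MUG-Chor1 effect minus the U-CH1 effect. In limma 0 of 9 members passed in either direction, against 0.200% of all genes called higher and 0.330% called lower. At an unadjusted p under 0.05, 2 members were lower and 0 higher, beside 1251 of 16986 genes in both directions together. SMAD6 gave -1.13 (interval -2.21 to -0.05; adjusted p = 0.642) and ID3 -0.93 (interval -1.84 to -0.01; adjusted p = 0.674). ID1 gave -1.21 (interval -2.82 to 0.40) and BAMBI 1.18 (interval -0.39 to 2.74). These intervals hold both no difference and differences above 2 log2 units for BAMBI and ID1, so the call of BAMBI in MUG-Chor1 and its lack in U-CH1 are not shown to differ. BMP4 gave 0.00 (interval -0.99 to 1.00), ID4 -0.30, ID2 -0.75, BMP2 -0.68 and SMAD7 0.02.

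The untreated lines were compared to show where each started. Of the 9 members 4 passed, ID4, BAMBI, BMP4 and SMAD6, all lower in untreated MUG-Chor1 than in untreated U-CH1. That is 0 members higher and 4 lower, against 10.3% and 8.57% of all genes tested. The others averaged lower without a call, and ID2 (-0.04) and SMAD7 (-0.18) changed sign when some single control was left out. By range the same 4 members had all MUG-Chor1 controls below all U-CH1 controls, against 18.2% of genes, and no member had them all above, against 18.1%. The median over the members was -0.86, beside -0.04 over all genes.

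ID4 averaged 4.84 ± 0.46 in untreated MUG-Chor1 and 7.28 ± 0.70 in untreated U-CH1 (SD, n = 3 each), 5.43-fold lower (difference -2.44 ± 0.34, SE; adjusted p = 0.000786). BAMBI averaged 4.00 ± 0.81 in MUG-Chor1 and 6.31 ± 0.31 in U-CH1 (SD, n = 3 each), 4.93-fold lower (difference -2.30 ± 0.35, SE; adjusted p = 0.00132). The groups did not overlap for either gene, and both calls held whichever control was left out. BMP4 averaged 3.60 ± 0.33 in MUG-Chor1 and 4.73 ± 0.22 in U-CH1 (SD, n = 3 each; difference -1.13 ± 0.22, SE; adjusted p = 0.00588). SMAD6 averaged 4.14 ± 0.47 in MUG-Chor1 and 5.0 ± 0.10 in U-CH1 (SD, n = 3 each; difference -0.86 ± 0.24, SE; adjusted p = 0.0335). The BMP4 call held whichever control was left out, with adjusted p up to 0.0295. The SMAD6 call ended without U-CH1 control 1, 2 or 3 (adjusted p = 0.0817, 0.0682 and 0.0921), and without MUG-Chor1 control 1 or 2 (0.0873 and 0.133).

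ID1 averaged 6.52 ± 0.59 in MUG-Chor1 and 7.56 ± 0.67 in U-CH1 (SD, n = 3 each; difference -1.04 ± 0.36, SE; adjusted p = 0.0720). The groups overlapped, since MUG-Chor1 control 3 at 7.20 exceeded U-CH1 control 2 at 6.86. ID1 passed without MUG-Chor1 control 3 (-1.38; adjusted p = 0.0168) and without U-CH1 control 2 (-1.39; adjusted p = 0.0285). ID2 differed by -0.04 (interval -0.51 to 0.42), ID3 by -0.27, BMP2 by -0.23 and SMAD7 by -0.18, none of them called (adjusted p of 0.427 to 0.921).

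**Figure D3:**
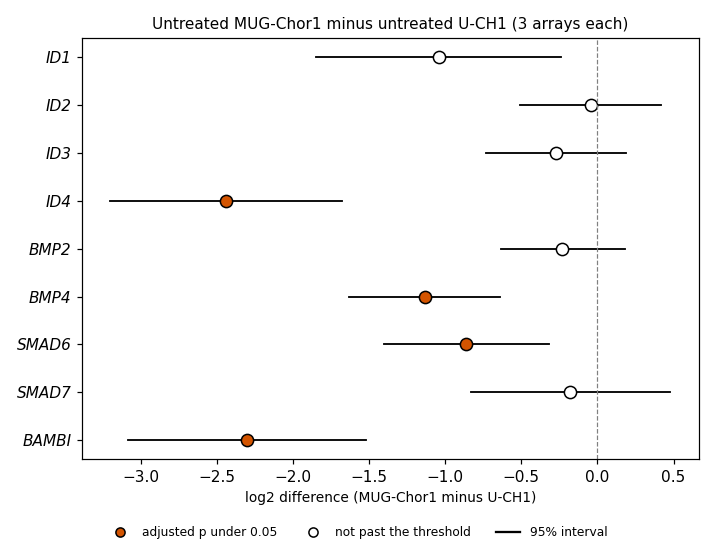
Untreated MUG-Chor1 minus untreated U-CH1 (log2, 3 arrays each) for each member, with 95% intervals from limma. All 9 points lie below 0, ID2 at -0.04 with an interval that spans 0, and ID4 (-2.44) and BAMBI (-2.30) lie farthest.

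Set side by side, the groups order differently by gene. BAMBI was lowest in untreated MUG-Chor1 (mean 4.00), and its MUG-Chor1 TNF value of 6.74 lay above all 3 untreated U-CH1 values (6.0 to 6.62), below the U-CH1 TNF array (7.86). ID4 ran the other way, lowest on the MUG-Chor1 TNF array (3.35), then untreated MUG-Chor1 (4.84), the U-CH1 TNF array (6.08) and untreated U-CH1 (7.28). BMP4 kept the same order as ID4, at 3.04 on the MUG-Chor1 TNF array, a mean of 3.60 in untreated MUG-Chor1, 4.17 on the U-CH1 TNF array and a mean of 4.73 in untreated U-CH1. SMAD6 on the MUG-Chor1 TNF array (4.35) stayed below all untreated U-CH1 arrays (4.92 to 5.11). The TNF and line comparisons share the control arrays.

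Genes whose pattern over the 8 arrays was nearest were found by the root mean square difference of gene-centred log2 values, for the 4 members that span more than 2 log2 units. Nearest to BAMBI were PPIF, which encodes a mitochondrial cyclophilin (0.44), TGFB2, a TGF-β ligand gene (0.51), and FBXW10B (0.55). TGFB2 read 7.62 on the MUG-Chor1 TNF array, against 4.96 to 6.48 on the MUG-Chor1 controls, and 8.13 on the U-CH1 TNF array, against 7.45 to 7.55 on the U-CH1 controls. Like BAMBI, it was highest with TNF in both lines and high on MUG-Chor1 control 3, a likeness for which it was picked. Nearest to ID1 were CLIC3 (0.25), CKB, a creatine kinase gene (0.27), and HJURP, a centromere chaperone gene (0.30). Nearest to ID4 were UPK3B (0.34), CAVIN2, a caveolar coat gene (0.41), and FZD4, a Wnt receptor gene (0.47). Nearest to SMAD6 were EFHD2 (0.18), SEMA4B, a semaphorin gene (0.20), and SFN, which encodes 14-3-3 sigma (0.21). These likenesses describe 8 arrays that share lines and treatment.

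**Figure D4:**
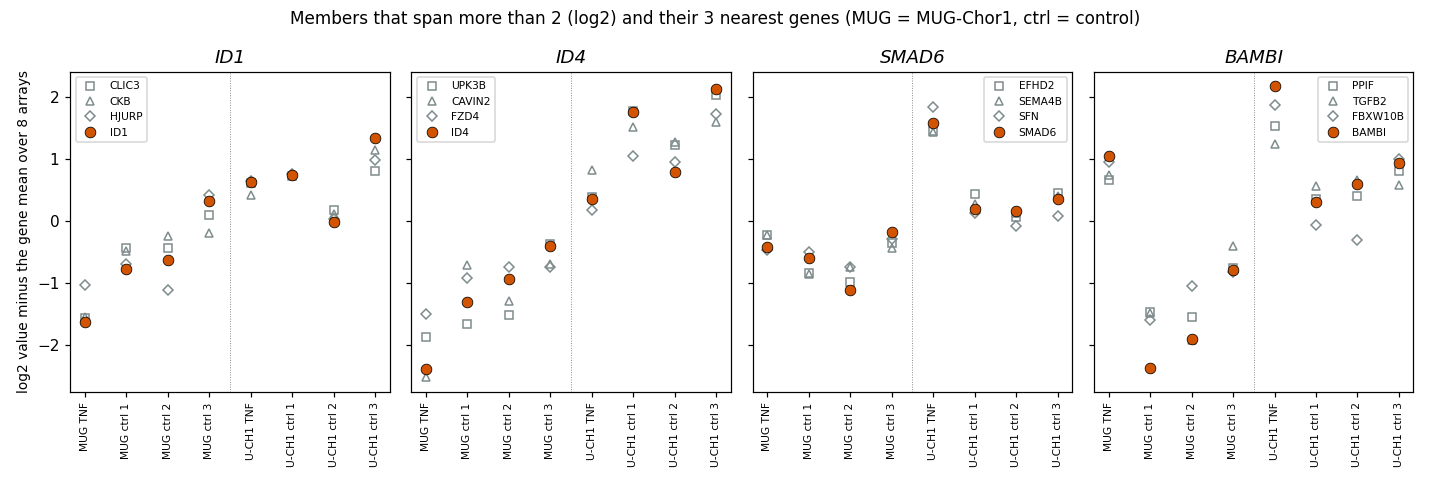
Log2 value minus the gene's mean over 8 arrays for ID1, ID4, SMAD6 and BAMBI (filled) and the 3 nearest genes of each (open), with the MUG-Chor1 arrays left of the dotted line and U-CH1 right. The BAMBI panel is lowest on MUG-Chor1 controls 1 and 2, and its TNF array is the highest of each line.

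Other genes of the pathway were read through 7 lists. Of all genes tested, 1.47% were called higher and 1.41% lower in MUG-Chor1, and 0.913% and 0.359% in U-CH1. Across both lines the shares were 1.55% and 0.930%. At such shares a short list without a call shows nothing particular to that list. With TNF, GREM1, RUNX2, MSC, TGFB2 and INHBA rose and TGFBR3 fell in MUG-Chor1, and NEO1, MSC and TWIST2 rose in U-CH1. In MUG-Chor1, 1 of 13 secreted BMP antagonists rose and none fell, against 1.47% and 1.41% of all genes tested. It was GREM1, which encodes the ligand-trapping protein gremlin 1, at 6.80 on the TNF array against 3.02, 3.08 and 3.63 on the controls (difference 3.55 ± 0.32, SE; adjusted p = 0.000234), or 11.7-fold. In U-CH1, GREM1 read 4.24 with TNF against 3.43, 3.77 and 3.82, and none of the 13 antagonists was called. The difference of the TNF effects on GREM1 was 2.99 (adjusted p = 0.0211). That call ended without U-CH1 control 1 (adjusted p = 0.0620), U-CH1 control 2 (0.0614) or MUG-Chor1 control 1 (0.0589).

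Among 16 other BMP-responsive genes, RUNX2, the bone and cartilage transcription factor gene, rose in MUG-Chor1, at 5.70 with TNF against 3.91, 4.30 and 4.31 (difference 1.52 ± 0.29, SE; adjusted p = 0.0198). Its call ended on the MUG-Chor1 arrays alone (adjusted p = 0.0533) and without MUG-Chor1 control 1 (0.0502) or control 2 (0.0580). In U-CH1 none of the 16 was called, against 0.913% of all genes tested called higher and 0.359% lower. DLX3 came closest there, at 4.84 with TNF against 2.60, 3.13 and 3.63 (difference 1.73, or 3.31-fold). Of 9 bHLH genes, MSC (musculin, a repressor) rose in both lines. It read 6.36 on the MUG-Chor1 TNF array against 2.82, 3.68 and 3.93, and 5.35 on the U-CH1 TNF array against 2.08, 2.30 and 2.77. The differences were 2.89 (adjusted p = 0.00428) and 2.97 (adjusted p = 0.00889). TWIST2, a mesenchymal bHLH gene, rose in U-CH1 by 1.74 (adjusted p = 0.0317), with control levels below the median of all values. It exceeded the filter only on the TNF arrays (3.97 in U-CH1 and 2.82 in MUG-Chor1). TWIST2 was thus tested only through the arrays where it is high, and its difference has no firm size. Its call ended without any 1 U-CH1 control or without MUG-Chor1 control 1 (adjusted p of 0.0522 to 0.0675).

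Of 14 genes of the TGF-β arm, 2 rose and 1 fell in MUG-Chor1, against 1.47% and 1.41% of all genes tested, and none was called in U-CH1, against 0.913% and 0.359%. TGFB2 rose by 2.01 (adjusted p = 0.0492) and INHBA, the activin A subunit gene, by 1.50 (adjusted p = 0.0369). INHBA read 3.55 with TNF, against 1.72, 2.19 and 2.26 on the MUG-Chor1 controls, which lie below the median of all values. The co-receptor gene TGFBR3 fell by 1.27 (adjusted p = 0.0294). All these calls lay near the threshold. All ended on the MUG-Chor1 arrays alone (adjusted p = 0.168 for TGFB2, 0.0698 for INHBA and 0.0646 for TGFBR3). TGFB2's also ended without the filter (adjusted p = 0.0734) and without each control except MUG-Chor1 control 3 (0.0771 to 0.134). INHBA's ended with quantile normalization (0.0504) and without U-CH1 control 2 or 3 or MUG-Chor1 control 1 or 2 (0.0515 to 0.105), and TGFBR3's without U-CH1 control 1 or MUG-Chor1 control 1 or 2 (0.0520 to 0.0946). Across both lines INHBA rose by 1.36 (adjusted p = 0.0127) and TGFBR1, the type I receptor gene, by 1.09 (adjusted p = 0.0303). Without the MUG-Chor1 TNF array these stood at 1.22 (adjusted p = 0.128) and 0.97 (0.250), and TGFBR1 also lost its call without the U-CH1 TNF array (0.0818) and without U-CH1 control 1, U-CH1 control 3 or MUG-Chor1 control 2 (0.0510 to 0.0641).

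**Figure D5:**
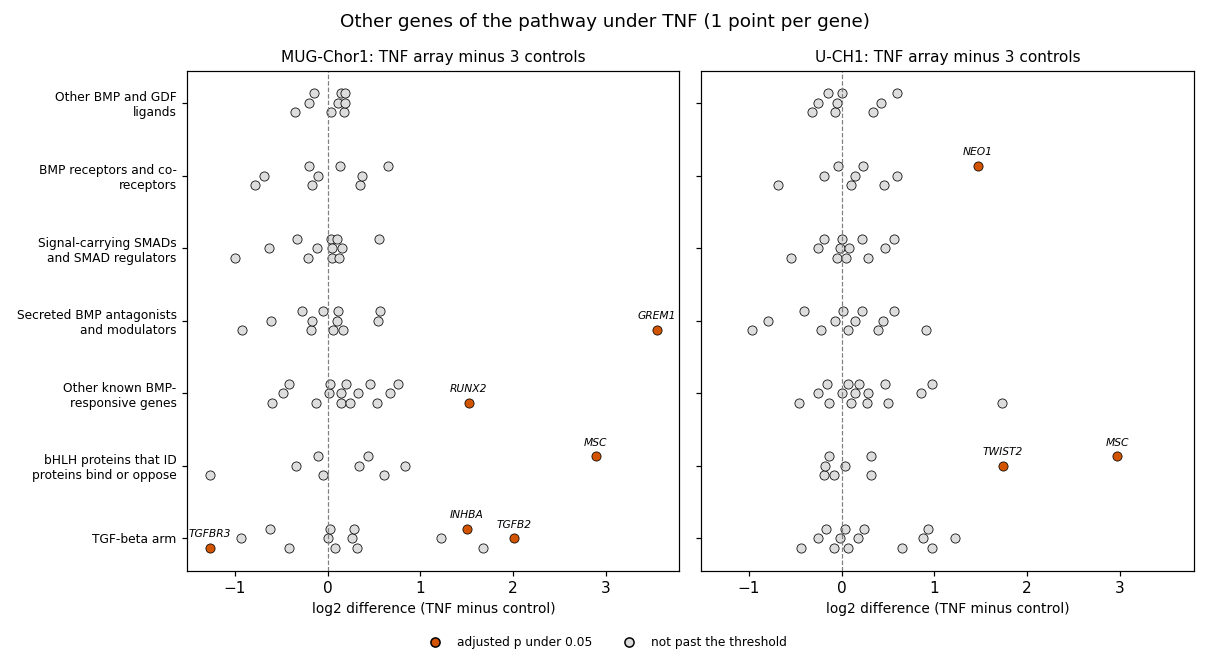
TNF minus control (log2) for each tested gene of 7 pathway lists, in MUG-Chor1 (left) and U-CH1 (right), with called genes filled and named. GREM1 stands apart in MUG-Chor1 (3.55), and MSC lies near 3 in both lines (2.89 and 2.97).

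Among 9 tested receptors and co-receptors, NEO1, which encodes the repulsive guidance receptor neogenin, rose in U-CH1, at 4.33 with TNF against 2.67, 2.89 and 3.01 (difference 1.47 ± 0.28, SE; adjusted p = 0.0352). Its call ended on the U-CH1 arrays alone (adjusted p = 0.0532) and without each control except MUG-Chor1 control 3 (0.0521 to 0.0882). In MUG-Chor1 none of the 9 was called. Of 12 signal-carrying SMADs and SMAD regulators none was called in either line, SMAD9 having the smallest p in MUG-Chor1 at -1.0 (adjusted p = 0.201) and SMURF1, a ubiquitin ligase gene, in U-CH1 at 0.56 (adjusted p = 0.491). SMAD1 and SMAD5, named after their values were seen, stood at -0.11 and 0.04 in MUG-Chor1 and at 0.05 and -0.25 in U-CH1. None of 9 other BMP and GDF ligands was called under TNF, with BMP8B at 0.27 across both lines (adjusted p = 0.557).

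Between the untreated lines 10.3% of all genes tested were called higher and 8.57% lower, and the counts of the lists are read against those shares. BMP6, another ligand gene, averaged 2.92 ± 0.19 in MUG-Chor1 and 7.20 ± 0.58 in U-CH1 (SD, n = 3 each), 19.4-fold lower (difference -4.28 ± 0.28, SE; adjusted p = 5.52e-06), as 1 of 9 other ligands. NEO1 averaged 5.59 ± 0.20 in MUG-Chor1 and 2.86 ± 0.17 in U-CH1 (SD, n = 3 each), 6.64-fold higher (adjusted p = 1.04e-05), and the co-receptor gene RGMB was lower by 1.23 (adjusted p = 0.00296). Of 13 antagonists 1 was higher and 3 lower, with TWSG1 at 1.09, and with CHRDL1, a chordin-like gene, at -1.96, SOSTDC1 at -0.92 and BMPER at -0.87. Of 12 SMADs and regulators 3 were higher, SMAD4 (1.0), CTDSP2 (1.08) and SKI (0.87), and the ubiquitin ligase gene SMURF2 was lower (-1.36). Of 16 BMP-responsive genes 3 were higher, TBX20 (1.34), DLX5 (0.76) and TBX3 (0.70), and 3 lower, SPRY1 (-1.31), DLX1 (-0.92) and DLX3 (-0.88). SPRY1 and DLX3 exceeded the filter on U-CH1 arrays only, so they were tested only through the line where they are high. On the MUG-Chor1 arrays they read 1.53 to 1.85 (SPRY1) and 2.12 to 2.44 (DLX3). Calls that ended without some control were those of SKI (adjusted p up to 0.0666), SOSTDC1 (0.0925), BMPER (0.105), DLX1 (0.0730), DLX3 (0.105), DLX5 (0.168) and TBX3 (0.152). Of the 9 bHLH genes TCF4 and MSC were higher, and of 14 TGF-β genes 2 were higher (SMAD2 and TGFBR3) and 2 lower (TGFB2 at -1.87 and PMEPA1 at -1.15). The calls of TCF4, MSC and TGFBR3 also ended without some control (adjusted p up to 0.0595, 0.112 and 0.125). With quantile normalization those of DLX5 (adjusted p = 0.0507) and TBX3 (0.0678) ended. On the control arrays alone, with replicate number as a block, those of DLX5 (0.0514) and TGFBR3 (0.0555) ended. BAMBI and TGFB2 were both lower in untreated MUG-Chor1 and both higher with TNF there. TGFB2 is among the genes nearest to BAMBI on these same arrays, so this is no separate result.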

How the data were processed

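RNA was measured on 8 arrays of chordoma cell lines. The deposited values are log2 levels of 53617 probe sets, made by the authors with RMA in Transcriptome Analysis Console as far as the submitters' processing notes name tools (no version). The log base is taken from RMA and from the range of 0.0648 to 12.7. RMA gives arrays nearly 1 distribution, which hides any shift common to the whole array.

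Probe sets with 1 symbol (23871) were named through the platform annotation, symbols were updated by Entrez identifier from RefSeq (GRCh38.p14), and the brightest on average stood for a gene. A gene was tested if it exceeded 2.57 on at least 1 array (16986 genes). Tests used limma 3.58.1 in R 4.3.3 (lmFit, eBayes) on 4 group means, or line plus TNF across both lines, with Benjamini-Hochberg adjustment over all genes tested. With 4 (group means) or 5 (additive) residual degrees of freedom, the single TNF arrays are assumed to vary like controls. The scripts were tested on simulated data.

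The members and lists were chosen with earlier results of these data known. All members are named; of each list, the genes called (up to 6 per comparison), or the one with the smallest p under TNF where none was; and the 3 nearest genes. Alternatives covered filter, probe sets, normalization, variance model, arrays in the fit and leaving out arrays.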

Additional observations from a re-analysis of the deposited data

Results flagged for a closer look

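The TNF effects of the lines differed past the threshold for 5 genes of the lists, by the test of the difference itself (MUG-Chor1 effect minus U-CH1 effect, log2), and for no member. GREM1, the BMP antagonist gene, had 2.99 (adjusted p = 0.0211). Among the marker lists FAP had 3.95 (adjusted p = 0.00336), ACAN -3.31 (0.0211), CD24 -2.47 (0.0238) and KRT19 -2.05 (0.0364). FAP exceeded the filter on low values only on the MUG-Chor1 TNF array (5.71) and read 1.63 to 2.29 on the other 7 arrays, so it was tested only through the array where it is high, and its difference has no firm size. Calls ended for GREM1 without 3 of the controls (adjusted p up to 0.0620), for ACAN without U-CH1 control 3 (0.0548), for CD24 without U-CH1 control 1 or 2 or MUG-Chor1 control 1 or 2 (up to 0.0698) and for KRT19 without each control except MUG-Chor1 control 3 (up to 0.102).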

How the results depend on the processing

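Of 603 values of members under alternatives, 574 kept direction and side of the threshold, 7 lost a call, 6 gained one and 16 changed sign. The count of members called in MUG-Chor1 was 0 on the arrays of that line alone. Leaving out 1 control gave 0 to 2 called in U-CH1, and leaving out 1 array gave 0 to 2 across both lines. Signs turned for small, uncalled differences: ID3 in MUG-Chor1 (-0.06 with quantile normalization, -0.02 to 0.05 leaving out 1 control), and, leaving out 1 control, SMAD6 (-0.03 to 0.44) and SMAD7 (-0.06 to 0.56) in MUG-Chor1, ID1 (-0.40 to 0.27) and ID2 (-0.15 to 0.08) in U-CH1, ID4 (-0.58 to 0.09), BMP4 (-0.17 to 0.17) and SMAD7 (-0.29 to 0.33) in the difference of effects, and ID2 (-0.16 to 0.10) and SMAD7 (-0.49 to 0.13) between untreated lines. The cause was not tested. Counts over all genes were 489 in MUG-Chor1 (296 on its arrays alone, 286 to 668 leaving out 1 control), 216 in U-CH1 (106 to 329), 422 across both lines (739 as the mean of the line effects, 200 to 491 leaving out 1 array), 90 for the difference (38 to 152) and 3209 between untreated lines (2125 to 3095).

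No label says what same-numbered controls of the lines share. Their deviations correlated at 0.0426, -0.0571 and 0.163 over genes, and those of other pairs at -0.146 to 0.141. Not every array correlated best with its own number, but the controls numbered 3 had the highest value of all pairs. So few pairs cannot show what the controls share, and a shared batch was not tested. With a replicate block on the 6 controls, 5 members and 3248 genes were called between untreated lines, ID1 being added (adjusted p = 0.0113), against 4 and 3209 without it. Each member has 1 probe set, so the choice of probe sets could change only the adjustment.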
